A study of Bos taurus with 36 samples.

Results

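The genes examined here are 10 chaperones and folding enzymes of the endoplasmic reticulum: HSPA13, HSPA5, HSP90B1, CALR, CANX, PDIA3, PDIA4, PDIA6, DNAJB9 and HYOU1. They were taken from a bovine count table of 35092 genes as the rows whose Entrez identifier carries one of these symbols in RefSeq, and all 10 were found. The set was proposed with values of these libraries in view, and HSPA13 (Entrez 505907) was chosen by its level across the gonad libraries, where that of 1 fetus is very low. Comparisons of HSPA13 that hold the gonads are therefore a description with no test. Each gene was followed in the heart, gonads and liver of male fetuses on Day 42 of gestation and in the blood of the heifers that carried them.

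The endoplasmic reticulum is where secreted and membrane proteins enter the secretory route, fold, receive their sugars and form disulfide bonds. HSPA5 (also called BiP) is its main Hsp70 chaperone, and when unfolded protein accumulates HSPA5 and most of the enzymes around it are known to be induced together by the unfolded protein response. The fetal liver, which secretes plasma proteins, and plasma cells in blood, which secrete antibody, are known for a large secretory load. The heart stores calcium in the same membrane system, where CALR buffers it.

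The study sequenced 36 libraries from 10 fetuses, numbered here by weight from fetus 1 (1.253 g) to fetus 10 (1.69 g). Heifers had received a Day 7 embryo either synchronously, on Day 7 of their cycle (ET_D7, fetuses 1 to 5, up to 1.37 g), or asynchronously, on Day 9 (ET_D9, fetuses 6 to 10, from 1.396 g). The transfer groups therefore did not overlap in weight, and the effects of transfer and weight cannot be told apart. There were 9 heart libraries (without fetus 7), 9 gonad libraries (without fetus 2), 8 liver libraries (without fetuses 6 and 7, so the ET_D9 livers are fetuses 8, 9 and 10) and 10 blood libraries. Every fetus or heifer gave 1 library per tissue, and no breed is given in the labels. The livers of fetuses 1 and 2 had close counts of all 10 genes and are treated as 2 separate libraries.

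Total counts per library ran from 18231089 to 40812354, and genes of the mitochondrial genome took 17.1% to 57.3% of them in the heart and at most 7.23% in the gonads. Levels are CPM, counts scaled to a common library size, with TMM factors that correct for differences in composition. Blood libraries were made with another kit, so blood levels are not set against organ levels. The heart and liver libraries carried their defining markers. In the libraries labelled fetal testicle, 5 of 10 Sertoli, 4 of 9 germ and 1 of 7 Leydig cell markers had a median of at least 1 CPM. Their sums were 111 to 187, 30.2 to 46.9 and 7.04 to 15.8 CPM, against 238 to 394, 15.4 to 21.9 and 10.1 to 25.0 CPM in the heart and 56.7 to 93.0, 9.06 to 67.7 and 62.5 to 149 CPM in the liver. The defining markers SOX9, AMH and DAZL had medians of 3.01, 1.67 and 0 CPM. All 10 nephron progenitor markers had a median of at least 1 CPM and summed to 559 to 771 CPM, against 34.4 to 94.7 CPM across heart and liver libraries. WT1, which is on both the Sertoli and the nephron progenitor list, had a median of 127 CPM in the libraries labelled fetal testicle. GATA4, also on the Sertoli list, had medians of 314 CPM in the heart and 0.054 CPM in those libraries. The Sertoli sums of these 2 tissues therefore rest largely on different genes. The libraries labelled fetal testicle are called gonads here after their label. Some livers held heart muscle transcripts, with a 10-gene marker sum of 4406, 2292 and 779 CPM in fetuses 3, 4 and 5 and 11.2 to 111 CPM in the other livers. These are bulk tissues, in which fewer cells of a type and less RNA per cell cannot be told apart.

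The organs differed in which chaperones they carried at a higher level, in both directions within the set. Between heart and liver, 4 of the 10 genes were higher in the heart (CALR, PDIA6, HSPA5 and HYOU1) and 3 were higher in the liver (HSPA13, PDIA4 and CANX) at an adjusted p-value under 0.05 in edgeR's quasi-likelihood test over 25095 genes. The same test called 27.9% of all genes higher in the heart and 30.7% higher in the liver, so 7 of 10 stands against 58.6% of all genes. HSPA13 is counted here although its ET_D9 livers lay below every heart library. Of the 9 genes tested between gonads and liver, 4 were higher in the gonads (HYOU1, PDIA6, HSPA5 and CALR) and 1, CANX, in the liver, against 30.8% and 33.6% of all genes. Of the 9 tested between heart and gonads 2 passed, PDIA4 and HYOU1, both higher in the gonads, and 0 were higher in the heart, against 23.1% and 23.5% of all genes. The median log2 fold change of the 10 genes was 0.12 in heart over liver, where all genes had 0. Over the 9 tested genes, without HSPA13, the median was 0.11 (PDIA3) in gonads over liver, where all genes had 0. In heart over gonads it was −0.02 (PDIA6), where all genes had −0.08. HSP90B1, PDIA3 and DNAJB9 passed in none of the 3 contrasts.

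**Figure D1:**
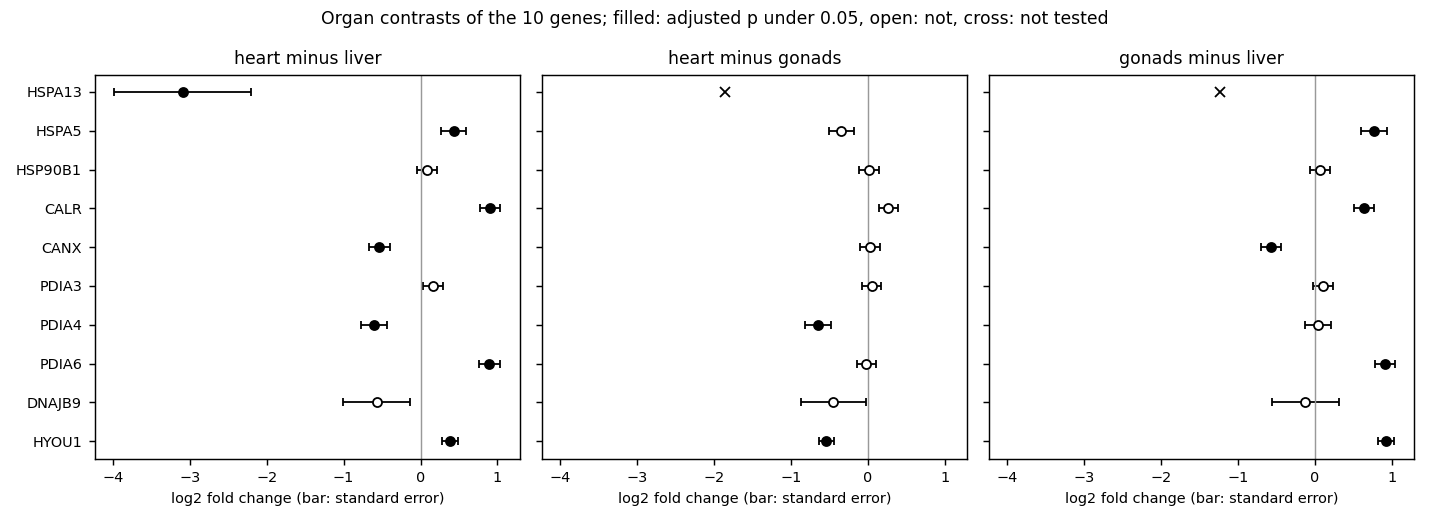
Each panel plots, for the 10 genes, the log2 fold change between 2 fetal organs with its standard error as a bar, from 1 edgeR fit to 26 organ libraries. Filled points passed an adjusted p-value of 0.05, and crosses were not tested. CALR, PDIA6, HSPA5 and HYOU1 lie to the right of 0 in both contrasts over the liver, CANX lies to the left in both, and HSPA13 has the widest bar in heart over liver.

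HSPA5, the Hsp70 that binds nascent chains, had its highest organ level in the gonads. It ran from 277 to 395 CPM there (median 326), from 150 to 447 CPM in the heart (median 276) and from 139 to 256 CPM in the liver (median 198). All gonad libraries lay above all liver libraries, whereas the heart libraries overlapped with both. The log2 fold change of gonads over liver was 0.77 (SE 0.17, adjusted p = 0.000228). Heart over liver was smaller, at 0.43 (SE 0.17, adjusted p = 0.0295), and this call did not hold with the fetus as a block (adjusted p = 0.0558), with RLE scaling (0.145), with DESeq2 (0.132), or without fetus 1, 3 or 10 (0.0695, 0.362 and 0.056), within a range of 0.0133 to 0.362 over all alternatives. Gonads and heart, neighbours in this order, did not differ past the threshold (adjusted p = 0.0801), though they did in DESeq2 (0.0449) and without fetus 3 (0.00834). In maternal blood HSPA5 ran from 155 to 250 CPM (median 226).

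HYOU1, a large Hsp70 relative that exchanges the nucleotide on HSPA5, separated the organs more sharply. The 9 gonad libraries averaged 58.1 ± 5.70 CPM (SD), the 9 hearts 40.0 ± 6.96 CPM (SD) and the 8 livers 30.7 ± 4.01 CPM (SD). Each gonad library exceeded each liver library, and the lowest gonad library, at 49.5 CPM in fetus 1, was below only 1 heart library, fetus 3 at 52.1 CPM. Gonads over liver was 0.92 on the log2 scale (SE 0.10, adjusted p = 1.14e-08) and heart over gonads −0.54 (SE 0.10, adjusted p = 5.68e-05). Heart over liver was 0.38 (SE 0.10, adjusted p = 0.00246), a call that RLE scaling (adjusted p = 0.0661) and DESeq2 (0.0567) did not keep, within a range of 0.00105 to 0.0661 over the alternatives. RLE scaling moved the median of all genes from 0 to −0.13 on the log2 scale in heart over liver and in gonads over liver.

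DNAJB9, a J-domain partner that hands clients to HSPA5 and is itself a target of the unfolded protein response, had at most 782 counts in a library and, among the genes other than HSPA13, the largest coefficient of variation in each fetal organ. Hearts ran from 1.62 to 12.1 CPM, gonad libraries from 0.324 to 13.1 CPM, livers from 3.88 to 10.1 CPM and blood from 6.94 to 12.2 CPM. The organs overlapped throughout, and the adjusted p-values were 0.266, 0.405 and 0.819 for heart over liver, heart over gonads and gonads over liver.

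HSP90B1, the Hsp90 of this compartment, was level across the organs within its spread. Its mean was 579 ± 112 CPM for 9 hearts, 572 ± 63.5 CPM for 9 gonad libraries and 546 ± 121 CPM for 8 livers (each with its SD). Its log2 fold changes were 0.08 for heart over liver (SE 0.14), 0.02 for heart over gonads (SE 0.13) and 0.07 for gonads over liver (SE 0.14), and none passed (adjusted p = 0.623, 0.945 and 0.676). Blood held 627 to 1121 CPM.

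CALR and CANX, the soluble and the membrane-bound lectin that hold glycoproteins during folding, went opposite ways between organs. CALR was lowest in the liver, where 186 to 286 CPM (median 267) lay below every heart and gonad library. It ran from 311 to 690 CPM in the heart (median 484) and from 338 to 436 CPM in the gonads (median 393). Heart over liver was 0.90 (SE 0.13, adjusted p = 8.57e-07) and gonads over liver 0.63 (SE 0.13, adjusted p = 0.000112), while heart over gonads, at 0.27 (SE 0.12, adjusted p = 0.0763), missed the threshold and passed it with a stricter count filter (0.0475), with DESeq2 (0.0346) and without fetus 2 (0.0272), within 0.0272 to 0.218 over the alternatives. CANX was highest in the liver, with 240 to 444 CPM (median 347) against 184 to 287 CPM in the heart and 138 to 303 CPM in the gonads. Its log2 fold changes were −0.54 for heart over liver (SE 0.13, adjusted p = 0.00115) and −0.57 for gonads over liver (SE 0.13, adjusted p = 0.000535). Heart and gonads differed by 0.03 (SE 0.13, adjusted p = 0.864).

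The protein disulfide isomerases did not share a pattern. PDIA3, which works on glycoproteins held by CALR and CANX, overlapped between organs, with means of 318 ± 57.2 CPM (SD) over 9 hearts, 307 ± 32.6 CPM (SD) over 9 gonad libraries and 284 ± 61.9 CPM (SD) over 8 livers, and with adjusted p-values of 0.289, 0.771 and 0.461 for heart over liver, heart over gonads and gonads over liver. PDIA6, a regulator of stress sensors as well as an isomerase, ran from 79.9 to 140 CPM in the liver and from 194 to 255 CPM in the gonads, with no overlap, and from 136 to 326 CPM in the heart, where only fetus 2 fell within the liver range. It was higher than in the liver by 0.89 on the log2 scale in the heart (SE 0.13, adjusted p = 1.45e-06) and by 0.91 in the gonads (SE 0.13, adjusted p = 9.31e-07). PDIA4 was instead lowest in the heart, at 39.3 to 107 CPM (median 65.7), with medians of 105 CPM in both gonads and liver. Its log2 fold change was −0.61 for heart over liver (SE 0.17, adjusted p = 0.00347) and −0.65 for heart over gonads (SE 0.17, adjusted p = 0.00197), and gonads and liver differed by 0.04 (SE 0.17, adjusted p = 0.851).

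**Figure D2:**
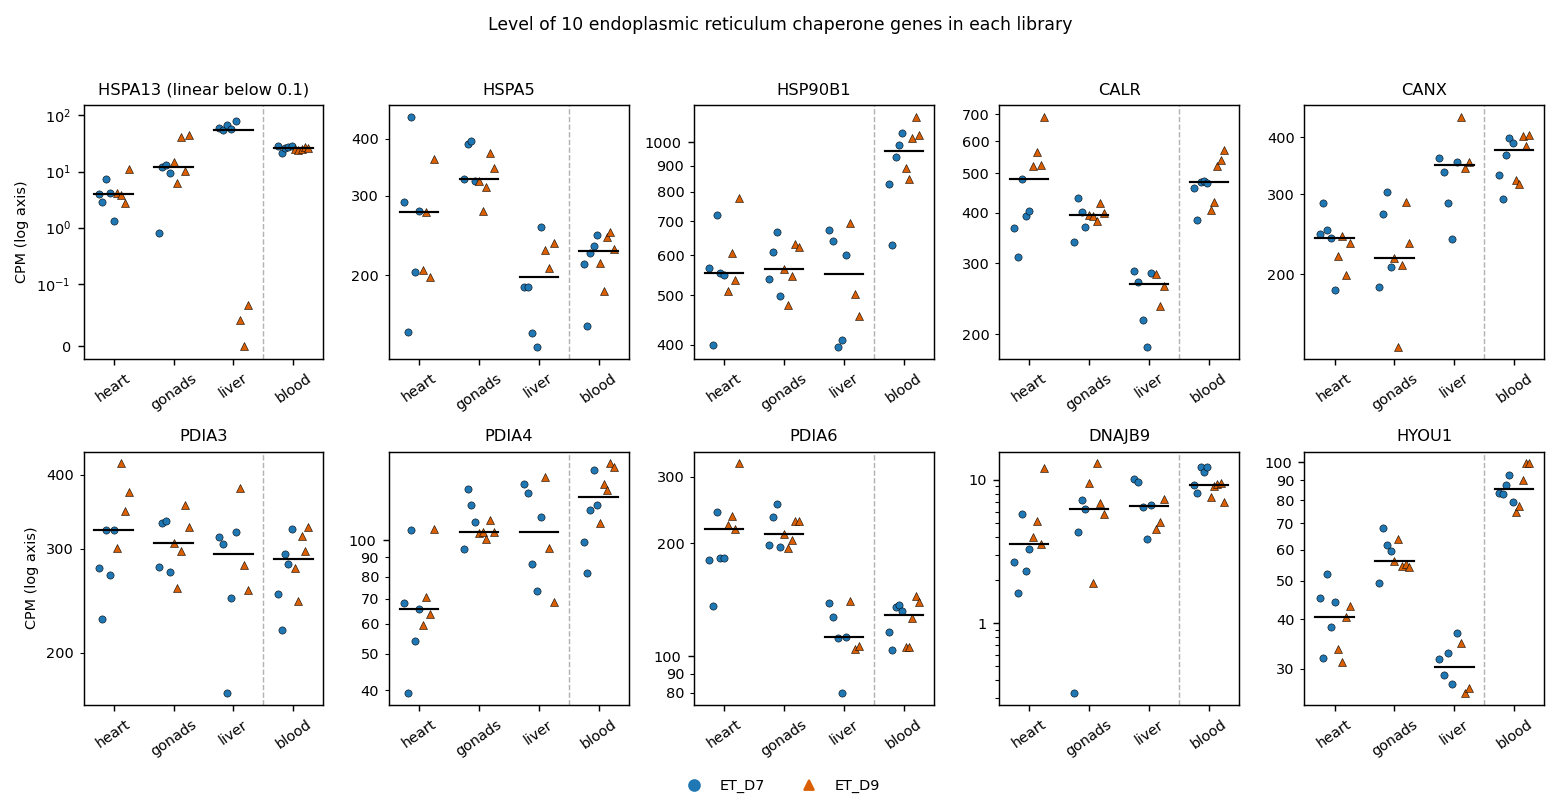
Each panel plots 1 gene, with a point per library in CPM on a log axis (linear below 0.1 for HSPA13), circles for ET_D7, triangles for ET_D9 and a black line at the tissue median. The dashed line sets off maternal blood, made with another kit. CALR, PDIA6 and HYOU1 are low in the liver, and HSPA13 splits into 5 livers at 54.6 to 78.0 CPM and 3 livers at or near 0.

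HSPA13 (Stch), an Hsp70-family protein of microsomes that lacks the usual substrate-binding domain, had the widest spread between libraries of any of the 10 genes in the gonads and liver. It was low in the heart, at 1.33 to 11.1 CPM (median 4.04), and steady in blood, at 21.0 to 28.3 CPM. Across libraries of the gonads its coefficient of variation was 90.4%, of the liver 84.8%, of the heart 63.6% and of blood 8.31%. The median over the other 9 genes was 11.1%, 20.6%, 24.7% and 12.6% in the same order.

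Among the gonads, HSPA13 measured 0.810 CPM in fetus 1 and 11.9, 13.1, 9.26, 14.9, 6.30, 40.3, 10.0 and 44.9 CPM in fetuses 3 to 10 in order of weight. The lightest fetus was 7.78-fold below the next lowest, fetus 7, and fetuses 8 and 10 stood above the rest, which together gave a 55.4-fold range. The counts behind these extremes were 30 in fetus 1, 312 in fetus 7, 2414 in fetus 8 and 2652 in fetus 10, with total counts of 22762065 to 37071028 in these 4 libraries. The linear slope of the description was 0.63 on the log2 scale per 0.1 g, and ET_D7 held 8.77 ± 5.55 CPM (SD, n = 4) against 23.3 ± 17.98 CPM in ET_D9 (SD, n = 5).

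DNAJB9 was the one other member with such a low value in the same library: 0.324 CPM in fetus 1 against 1.92 CPM in fetus 7, the next lowest and 5.92-fold higher, and 4.35 to 13.1 CPM in the remaining gonads. The other 8 genes did not stand apart there. In the gonads of fetus 1, HSPA5 measured 326 CPM, which was also the tissue median, and HSP90B1 539 CPM. CALR (338 CPM), PDIA4 (94.5 CPM) and HYOU1 (49.5 CPM) had their lowest gonad value in this fetus, within 1.29, 1.44 and 1.37-fold of their highest. Low values in the gonad library of fetus 1 were not confined to HSPA13 and DNAJB9. With 0.1 CPM added to every level, 301 of 17809 genes were at least 5-fold lower in that library than in every other gonad library. HSPA13 was among these 301 genes, and DNAJB9, with the 0.1 CPM added, was not. The same count was 132 for fetus 8 and 0 to 7 for the other 7 gonad libraries. That library had the smallest total of its tissue (22762065 counts) and an ordinary mitochondrial share (4.48%), and what they have to do with the low values was not tested.

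The 5 genes whose log2 levels followed HSPA13 most closely over the 9 gonad libraries, among 14503 genes with a mean of at least 1 CPM, were VHL (r = 0.980), PKIB (0.973), TYRP1 (0.970), DPP4 (0.969) and PRKAR2A (0.968). All 5 had their minimum in fetus 1: VHL measured 0.216 CPM there and 1.54 to 6.17 CPM elsewhere, and PRKAR2A 11.8 CPM against 49.5 to 152 CPM. These correlations describe 9 points that share the low library of fetus 1 and the high libraries of fetuses 8 and 10.

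In the liver, HSPA13 was present in one transfer group and virtually without counts in the other. The livers of fetuses 1 to 5 (ET_D7) measured 59.9, 54.6, 68.4, 56.4 and 78.0 CPM, a mean of 63.5 ± 9.69 CPM (SD, n = 5). Those of fetuses 8, 9 and 10 (ET_D9) held 1, 0 and 1 counts, where 0 counts allow up to 3 counts, or 0.150 CPM, in fetus 9. The groups did not overlap, as was so for 5.73% of 16605 genes in this direction, and the ratio of ET_D7 to ET_D9 was 1922 (95% exact interval 532 to 15874, from 6654 against 2 counts, covering counting error only). It passed the filter on low counts only through the 5 ET_D7 livers, so no call along weight or between transfer groups is drawn on for it here.

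HSPA13 belonged to a set of liver genes with the same step. For 333 genes, some livers held no more than 2 counts while every remaining liver held 300 or more, a split that 1 gene showed among hearts, 1 among gonads and 2 among blood libraries. HSPA13 was the only member among them, and 0 of 88 other endoplasmic reticulum genes listed for comparison were. Of the 333, 323 had at most 2 counts in all of fetuses 8, 9 and 10, and 33, HSPA13 included, split exactly between these 3 livers and the other 5. All 33 held the same counts, 1, 0 and 1, in fetuses 8, 9 and 10, as did 217 of the 323. How these counts came to be equal was not tested, nor whether the liver counts had been altered before deposit, and the ratio above describes the counts as deposited. Over all 26 organ libraries, the 5 genes most like HSPA13 were EDNRB (r = 0.959), DUSP19 (0.957), TBPL1 (0.956), ZNF75D (0.945) and SNAPC1 (0.944), among 16107 genes. Each of these 5 held 1, 0 and 1 counts in the same 3 livers, although TBPL1 was not among the 333, since the livers of fetuses 1 and 2 held 248 and 264 of its counts.

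**Figure D3:**
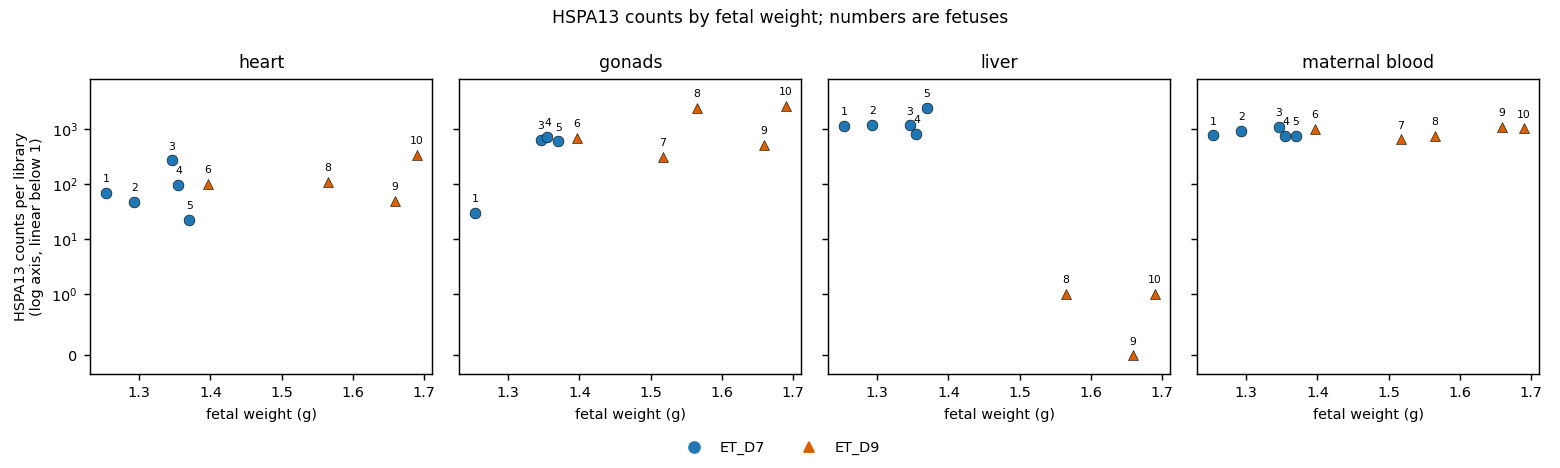
HSPA13 counts per library (log axis, linear below 1) are plotted by fetal weight in grams for each tissue, with circles for ET_D7 and triangles for ET_D9 and the fetus number beside each point. Liver counts stop at 1, 0 and 1 in fetuses 8, 9 and 10, the gonads of fetus 1 hold 30, and blood stays flat.

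Heart over liver for HSPA13 was −3.09 on the log2 scale (SE 0.89, adjusted p = 0.00414) over all livers, within 1.39e-06 to 0.0448 over the alternatives. The lowest of these came without the ET_D9 livers (−3.77, SE 0.54). That setting was chosen after seeing the data and removes the livers at or near 0, so it is no separate support. The ET_D9 livers, at 0 to 0.0654 CPM, lay below every heart, so the call rests on the ET_D7 livers. The fit also holds the gonad libraries by which HSPA13 was chosen. As a description, heart over gonads was −1.86 and gonads over liver −1.24.

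Along fetal weight in the heart, the fitted log2 difference between the heaviest and the lightest fetus was above 0 for 9 of the 10 genes, and 0 of them passed the test of a 3-degree spline (adjusted p from 0.601 to 0.996, edgeR). No gene of 16250 passed that test (0.0%), and 7.99% had an unadjusted p-value under 0.05. The median fitted difference was 0.54 for the 10 genes and −0.01 for all genes. The genes do not give separate trends, since most were low or high in the same heart libraries, as given below. CALR had the clearest order. The 5 ET_D7 hearts measured 366, 311, 484, 393 and 404 CPM in fetuses 1 to 5, and the 4 ET_D9 hearts 521, 564, 524 and 690 CPM in fetuses 6, 8, 9 and 10. The groups did not overlap, which held in this direction for 6.36% of genes, and CALR was the only member of which it was so, with 0 members the other way (3.38% of genes). The difference of 0.56 on the log2 scale (SE 0.14, adjusted p = 0.0689) missed the threshold, which 0.0492% of genes passed.

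A linear weight term gave a CALR slope of 0.19 per 0.1 g (SE 0.04, adjusted p = 0.0432), which passed, as did 6.77% of genes. Without the hearts of fetuses 3 and 10 the fitted CALR difference from the lightest to the heaviest fetus was 0.73 (adjusted p = 0.124) against 0.81 with them. The first of these ends at 1.659 g and the second at 1.69 g, so their ranges differ. Beside the transfer group the difference was 0.49 (adjusted p = 0.699). The spline test in DESeq2 also called CALR, in a fit that called 535 genes in place of 0. Over the alternatives the adjusted p-value was 0.0432 or higher. DNAJB9, PDIA6 and PDIA3 had slopes of 0.38 (SE 0.12, adjusted p = 0.0739), 0.16 (SE 0.05, adjusted p = 0.0789) and 0.13 (SE 0.04, adjusted p = 0.08) and did not pass. Leaving out fetus 3 brought CALR, PDIA6 and DNAJB9 past the threshold between transfer groups (adjusted p = 0.0141, 0.0339 and 0.0474), in a fit that called 2846 genes in place of 8. Their adjusted p-values over the alternatives ran from 0.00385 to 0.21, 0.0339 to 0.412 and 0.0474 to 0.617.

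**Figure D4:**
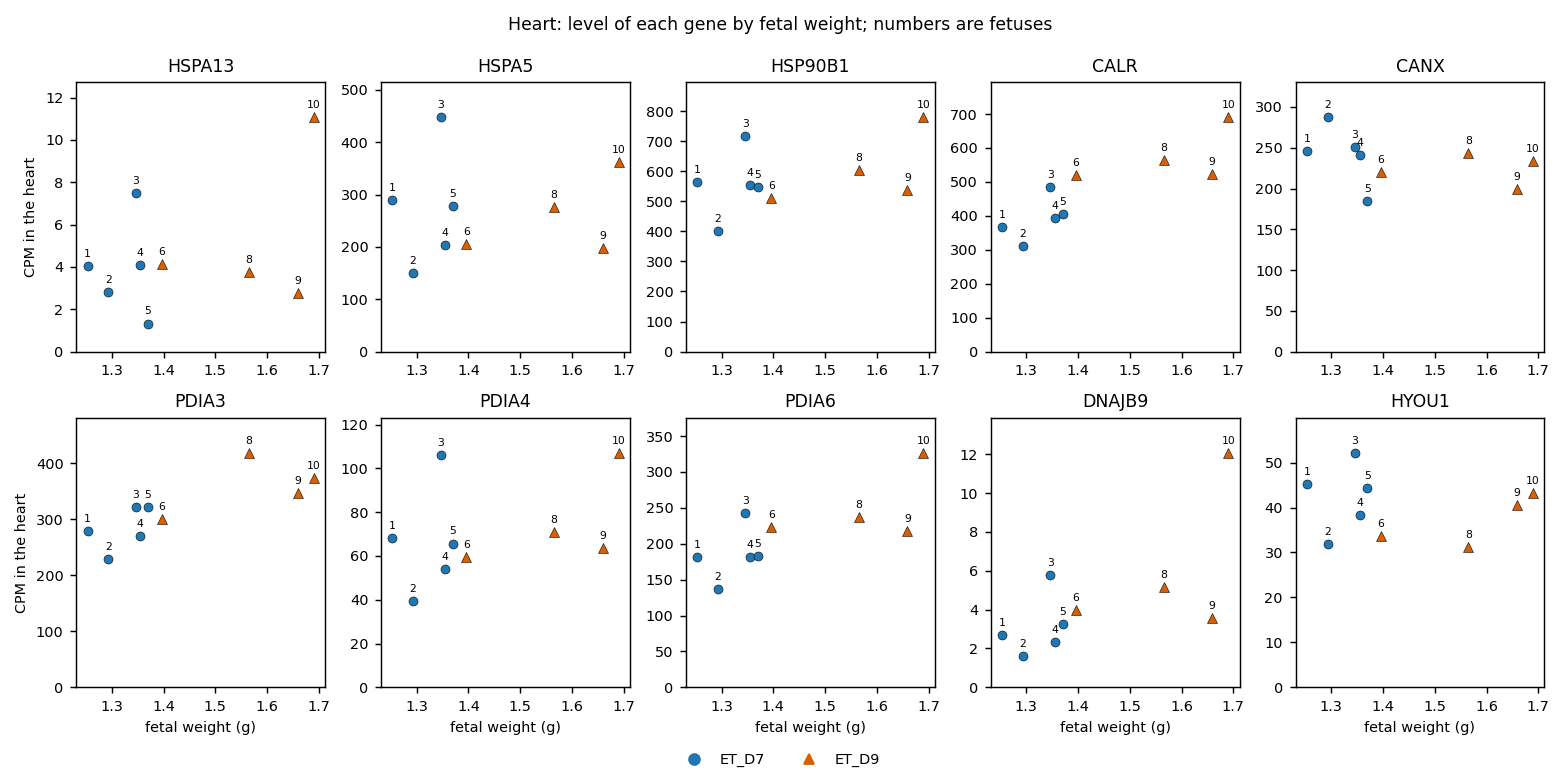
Heart levels in CPM (linear axes from 0) are plotted against fetal weight in grams for the 10 genes, circles for ET_D7, triangles for ET_D9, with the fetus number at each point. CALR in the 4 ET_D9 hearts (521 to 690 CPM) lies above all ET_D7 hearts (311 to 484 CPM), while HSPA5 is highest in fetus 3 (447 CPM).

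Most of the genes were low or high in the same heart libraries. Fetus 2 had the lowest value of 7 genes, among them HSPA5 (150 CPM), PDIA4 (39.3 CPM) and DNAJB9 (1.62 CPM), and fetus 3 or 10 had the highest of 8. HSPA5 peaked in fetus 3 at 447 CPM with 362 CPM in fetus 10, and PDIA4 reached 106 and 107 CPM in these 2 hearts against 39.3 to 70.7 CPM in the others. CANX did not follow, with its highest value in fetus 2 (287 CPM), 251 CPM in fetus 3 and 234 CPM in fetus 10 beside a median of 241 CPM. Fetuses 10 and 3 also had the lowest mitochondrial shares (17.1% and 23.5%) and fetus 2 the highest (57.3%). The summed level of 10 cytosolic heat shock and early response genes moved alike, at 5908, 5418 and 2432 CPM in fetuses 10, 3 and 2 and 3149 to 4507 CPM in the other hearts. Their part in the chaperone levels was not tested.

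**Figure D5:**
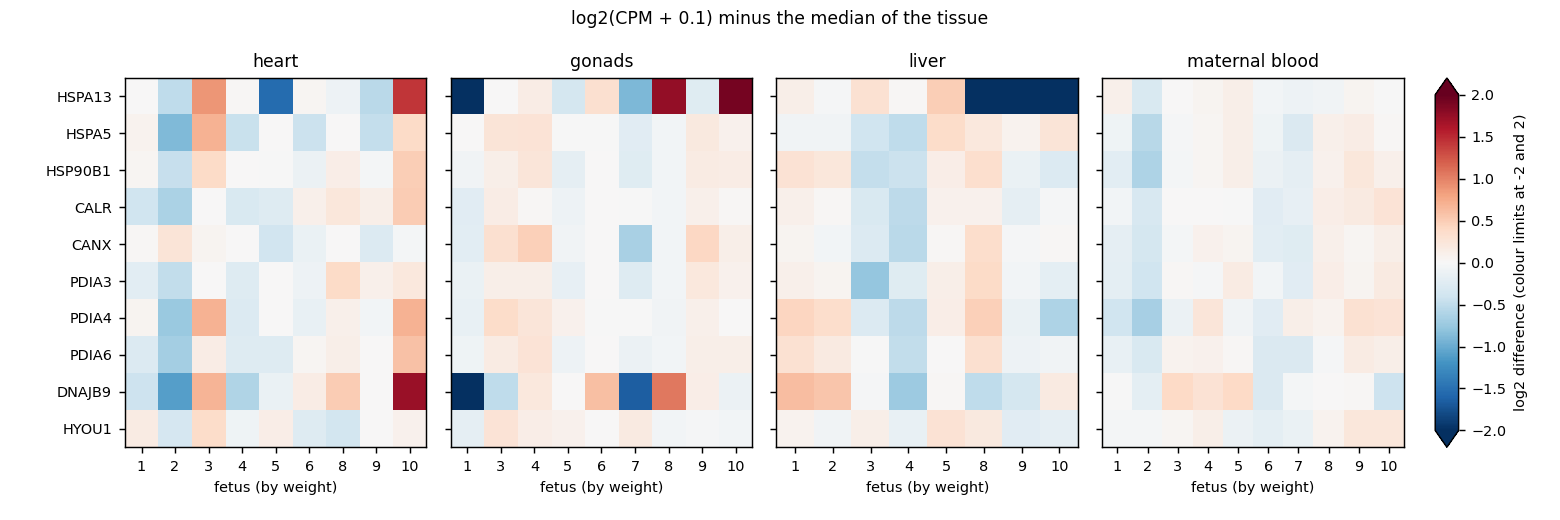
Colour gives log2(CPM + 0.1) minus the median of the tissue for each gene (rows) and fetus (columns, by weight), with colours limited at −2 and 2. The columns of fetuses 3 and 10 are red and that of fetus 2 blue for most genes in the heart, and the darkest cells are HSPA13 in livers 8 to 10 and HSPA13 and DNAJB9 in the gonads of fetus 1.

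The other tissues gave no further call among the remaining genes. The 9 genes tested in the gonads had adjusted p-values of 0.342 to 0.627 along weight, where 0.0% of 17809 genes passed and 12.6% had an unadjusted p-value under 0.05, and of 0.637 to 0.982 between transfer groups (0.354% of genes passed). The transfer groups overlapped for all 10 genes in the gonads, where 3.35% of genes lay wholly above and 4.3% wholly below in ET_D9. Among the 9 tested genes, DNAJB9 had the largest fitted difference over the weight range in the gonads, 4.18 on the log2 scale (SE 1.25, adjusted p = 0.342). It rests on the library of fetus 1, without which it was 0.09 (adjusted p = 0.997) over a range that then starts at 1.346 g. It passed in DESeq2 (adjusted p = 0.00932) and without fetus 7 (0.000303) or 8 (0.000157), within 0.000157 to 0.997 over the alternatives. These fits called 1358, 905 and 1501 of all genes in place of 0. In the liver, the genes other than HSPA13 overlapped between transfer groups (8.48% of genes lay wholly above in ET_D9), and among these PDIA4 had the largest fitted difference along weight, −1.02 on the log2 scale, without passing. PDIA4 measured 141, 134, 86.2, 73.2 and 115 CPM in fetuses 1 to 5 and 146, 95.2 and 68.4 CPM in fetuses 8, 9 and 10. Its fitted difference was −0.56 without fetus 10, where the range ends at 1.659 g, and −1.19 to −0.56 over all fits that left out 1 fetus. In the livers of fetuses 3 and 4, where heart muscle markers were highest, CALR measured 217 and 186 CPM, HSPA5 149 and 139 CPM and HSP90B1 395 and 408 CPM, in each case the 2 lowest of the 8 livers. CANX (286 and 240 CPM) and PDIA3 (171 and 247 CPM) were lowest there too. PDIA4, PDIA6, DNAJB9, HYOU1 and HSPA13 were not: HYOU1 measured 32.9 CPM in fetus 3, above the liver median of 30.3 CPM. What part the heart transcripts have in that was not tested.

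In maternal blood, most of the chaperones were lowest in 1 library. The heifer carrying fetus 2 had the lowest level of 8 of the 10 genes, with 155 CPM of HSPA5 and 627 CPM of HSP90B1, and those carrying fetuses 9 and 10 had the highest of 8. The summed level of 8 plasma cell markers was also lowest for fetus 2 (409 CPM) and highest for fetus 9 (1035 CPM), against 564 to 757 CPM in the other heifers, and its part was not tested. This sum includes XBP1 (63.2 to 99.8 CPM), which is also on the list of unfolded protein response regulators. The heifer carrying fetus 2 also had the highest summed heart muscle markers in blood (4085 CPM), with 1463 CPM for fetus 5 and at most 22.5 CPM in the rest. Along weight 0.129% of 16284 genes passed and 0 members did, with adjusted p-values of 0.454 to 0.976, and between transfer groups 0.0% of genes passed. The groups overlapped for all 10 genes in blood, where 0.657% of genes lay wholly above and 0.633% wholly below in ET_D9. By a linear term PDIA4 had the largest slope in blood, 0.15 per 0.1 g (SE 0.04, adjusted p = 0.383), from 81.8 to 160 CPM over the 10 heifers.

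Whether the weight slope differed between organs was tested on its own. HSPA13 had a slope 3.14 higher per 0.1 g in the heart than in the liver, given as a description with no call. Its liver slope holds the step between the ET_D7 and ET_D9 livers, and with counts at or near 0 its fitted size depends on the prior count of the fit. Between heart and liver 8.15% of 19635 genes differed in slope. CALR had a slope 0.19 higher in the heart (SE 0.06, adjusted p = 0.0749) and did not pass, though it did with RLE scaling (adjusted p = 0.0291), without fetus 3 (0.0232) and without fetus 4 (0.0456), within 0.0232 to 0.29. Leaving out fetus 3 also brought PDIA4 (adjusted p = 0.0487, within 0.0487 to 0.936) and PDIA6 (0.0442, within 0.0442 to 0.563) past the threshold. Fits that left out 1 fetus called 692 to 2027 of all genes in this contrast, beside 1600 in the main fit. Heart and gonads differed in the slope of 0 of the 9 genes tested, against 0.0357% of all genes, and gonads and liver likewise of 0, against 5.14%.

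The rest of the folding machinery, 88 genes in 8 lists of which 87 had counts, held genes higher in either organ of each pair. In heart over liver 28 were higher and 35 lower, beside 27.9% and 30.7% of all genes (median log2 fold change −0.02 against 0 for all genes). In heart over gonads 32 and 19 were, beside 23.5% and 23.1% (median 0.17 against −0.08), and in gonads over liver 28 and 39, beside 30.8% and 33.6% (−0.17 against 0). The single lists below are read against the same shares and were not tested as sets. Of the 15 genes of endoplasmic reticulum-associated degradation, which returns misfolded protein to the cytosol, 10 were lower in the heart than in the liver and 2 higher. In heart over gonads 4 were lower and 2 higher, and in gonads over liver 6 were lower and 2 higher. Of the 8 prolyl isomerases and the collagen chaperone, 6 were higher in the gonads than in the liver and 2 lower. In heart over liver 5 were higher and 2 lower, and in heart over gonads 2 were higher and 1 lower. Among the 11 tested partners of Hsp70, 5 were higher in the heart than in the gonads and 2 lower, and 3 were higher and 5 lower in the heart than in the liver. In gonads over liver 4 of them were higher and 6 lower.

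Of the 13 translocon and signal peptidase genes, 5 were higher and 6 lower in the heart than in the liver. In heart over gonads 8 were higher and 1 lower, and in gonads over liver 2 were higher and 7 lower. SEC62, a translocon subunit, averaged 3028 ± 907 CPM (SD) over 8 livers, 309 ± 110 CPM (SD) over 9 hearts and 158 ± 22.3 CPM (SD) over 9 gonad libraries, a log2 fold change of −4.26 in gonads over liver (SE 0.22, adjusted p = 6.87e-16). FKBP11, a prolyl isomerase of secretory cells, had 481 ± 118 CPM in the liver against 22.6 ± 4.57 CPM in the heart and 23.1 ± 3.08 CPM in the gonads, or −4.42 in heart over liver (SE 0.16, adjusted p = 2.17e-19). Its relative FKBP10, which acts on collagen, went the other way, with 83.1 ± 13.7 CPM in the heart, 65.4 ± 14.5 CPM in the gonads and 14.95 ± 7.11 CPM in the liver, a log2 fold change of 2.47 in heart over liver (SE 0.21, adjusted p = 4.95e-11) and 2.13 in gonads over liver.

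PDIA2, an isomerase known from pancreas, had 92.4 ± 33.7 CPM in the liver, 19.1 ± 7.84 CPM in the heart and 1.76 ± 0.538 CPM in the gonads, while TMX3 and TMX4, membrane-bound isomerases, were higher in the gonads than in the liver by 2.69 and 2.17 on the log2 scale. TMX3 was also among the 3 genes of these lists with the largest fall from gonads to heart (−1.35), with MBTPS2 (−1.37), a protease that activates ATF6, and EDEM1 (−1.36), a degradation lectin. CLGN, a lectin related to CANX, had 90.8 ± 28.5 CPM in the heart against 3.21 ± 0.383 CPM in the gonads, a log2 fold change of 4.82 (SE 0.20, adjusted p = 2.13e-17), although CANX itself did not differ between these organs. KDELR3, a receptor that returns escaped chaperones, was higher in the heart than in the liver by 3.12 (SE 0.39). CHAC1, a target of ATF4, passed in heart over liver (5.54) and heart over gonads (3.30) at a heart level of 2.03 ± 1.13 CPM, and CALR3 in heart over liver (−2.98) at 1.73 ± 0.762 CPM in the liver.

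Along weight and between transfer groups, DERL3, a channel component of the degradation pathway and a target of the unfolded protein response, was the only one of the listed genes to pass, and only in the liver, 1 of 86 tested, where 4.14% of all genes passed between transfer groups and 1.81% along weight. It measured 14.9, 13.3, 4.003, 5.93 and 4.14 CPM in fetuses 1 to 5 and 1.94, 1.302 and 1.18 CPM in fetuses 8, 9 and 10. The groups did not overlap, as for 5.73% of all genes, and the log2 difference was −2.62 (SE 0.54, adjusted p = 0.0298) between groups and −3.84 (SE 0.57, adjusted p = 0.0145) over the weight range. HSPA5, another known target of that response, measured 139 to 256 CPM in the ET_D7 livers and 207 to 236 CPM in the ET_D9 livers. DERL3 was highest in the livers of fetuses 1 and 2, at 279 and 286 counts. Those livers were also close in SEC62 (49550 and 50665 counts) and FKBP11 (11598 and 12110), though not in KDELR3 (46 and 120). They were close in all 10 members, as in HSPA13 (1124 and 1174), PDIA6 (2607 and 2729) and HYOU1 (596 and 620). HSPA5 (3531 and 4056) was the furthest apart. Their mitochondrial shares were 24.5% and 24.3%. The fits count them as 2 separate livers, and whether they are independent was not tested. Why they were alike was not tested. In slope, DERL3 (0.81), FKBP7 (0.85), EDEM1 (0.38), SEC63 (0.34) and ERLEC1 (0.30) were higher in the heart than in the liver per 0.1 g at adjusted p-values of 0.00427, 0.0203, 0.0245, 0.0203 and 0.0458, which is 5 of 87 listed genes beside 8.15% of all genes. DERL3 alone was higher in the gonads than in the liver (1.11, adjusted p = 0.000365), 1 of 87 beside 5.14%.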

How the data were processed

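Whole-number counts per gene were deposited by the authors, who trimmed reads with Trimmomatic after FastQC 0.11.9, mapped them with STAR 2.7.0b to the bovine assembly ARS-UCD1.3 and counted them with featureCounts (Subread 2.0.3). Counting options for strand, multi-mapping reads and read pairs are not given in the sources used here, so overlapping genes are uncertain. Organ libraries were made with the TruSeq-stranded mRNA kit and blood libraries with the SMARTer stranded kit.

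Of 35092 Entrez identifiers, 31630 matched a RefSeq symbol. Total counts per library were 18231089 to 40812354, and counting intervals cover counting error only. Counts were fitted with edgeR 4.0.16 (R 4.3.3, quasi-likelihood test, TMM, Benjamini-Hochberg adjustment over all genes tested, threshold 0.05). Organ contrasts used the 26 organ libraries and genes with at least 1 count. Weight (natural spline with 3 degrees of freedom), transfer group and organ-specific slopes used genes with 10 or more counts in 4 or more libraries. CPM used TMM-scaled library sizes, over the organ libraries or over the blood libraries. Scripts were tested on simulated data. DESeq2 1.42.0, RLE scaling, other filters, a fetus block and leaving out each fetus were alternatives.

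Libraries of 1 fetus come from the same animal. The deviations of same-fetus organ libraries from their group means correlated between −0.291 and 0.340 (median 0.028, above 0.1 in 5 of 23 pairs). The members and lists were chosen with earlier results of these data known. From the 8 lists, the 3 called genes with the largest change per organ contrast and direction are named, and up to 2 called genes per direction along weight or between transfer groups. Lengths of transcripts were not used here, so levels of different genes are not compared. The genes most like the mean of the members other than HSPA13 are not reported here.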

Additional observations from a re-analysis of the deposited data

Results flagged for a closer look

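DNAJB9 in the heart of fetus 10 stood apart from the other 8 hearts, at 12.1 CPM against 1.62 to 5.804 CPM. Its gap to the nearest heart exceeded Dixon's critical value, as the only one of 40 gene and tissue pairs examined, where chance alone marks about 1 in 20. The HSPA13 weight slope was 3.14 higher in the heart than in the liver on the log2 scale per 0.1 g, with 0.19 in the heart and −2.87 in the liver in fits of each tissue alone. It is given as a description, since the liver slope holds the step between the ET_D7 and ET_D9 livers. The 3 ET_D9 livers held 1, 0 and 1 HSPA13 counts.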

How the results depend on the processing

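Counts over all genes, against which the members are read, varied more. DESeq2 called 535, 1358, 1771 and 484 genes along weight in heart, gonads, liver and blood in place of 0, 0, 301 and 21, and 2166, 940, 1520 and 65 between transfer groups in place of 8, 63, 688 and 0. The linear term called 1100 in the heart and 0 in blood, and with the transfer group 0 in liver and blood. RLE scaling, or leaving mitochondrial genes out, left 6 between transfer groups in the gonads, and no count filter left 3 there and 441 in the liver. Calls on the 10 genes were kept under most alternatives, and 2 settings moved counts of members most. Requiring a log2 fold change beyond 1 left 0 genes higher and 1, HSPA13, lower in heart over liver, 0 and 0 in gonads over liver, and 0 lower in heart over gonads. RLE scaling and DESeq2 each left 2 genes higher in heart over liver in place of 4, losing HSPA5 and HYOU1. In heart over gonads 1 gene, CALR, became higher with DESeq2 or a stricter count filter, and the number higher lay between 0 and 1 when 1 fetus was left out. Settings that leave out the ET_D9 livers, the gonads of fetus 1 or the hearts of fetuses 3 and 10, and a depth term in blood, were chosen after seeing the data. Along weight, DESeq2 called 1 member in the heart and 1 in the gonads and the linear term 1 in the heart, in place of 0, and between transfer groups in the heart DESeq2 called 1. In the liver, a linear term with the transfer group called 0 in place of 1 (HSPA13), with the HSPA13 term reversed at 1.48. The slope difference of heart and liver was called for 2 members with RLE scaling in place of 1. These counts include HSPA13, on whose liver weight and slope calls nothing is drawn here. When 1 fetus was left out, member counts lay between 0 and 3 for transfer groups in the heart (3 without fetus 3), 0 and 1 for weight in the gonads and 1 and 4 for the slope difference of heart and liver (4 without fetus 3). Over all genes the same fits called 0 to 2846, 0 to 1501 and 692 to 2027.

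With the fetus as a replicate block, HSPA5 in heart over liver lost its call (0.40, adjusted p = 0.0558), leaving 3 members higher, and the slope differences over all genes fell from 1600 to 938, 7 to 0 and 1009 to 463 in heart and liver, heart and gonads, and gonads and liver. No other call on a member changed in the organ contrasts or slopes. The causes of these changes were not tested. DNAJB9, with 12 to 782 counts per library, had the fewest counts of the genes other than HSPA13.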
